A study of Mus musculus with 14 samples.

Results

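The libraries described here are the 8 cultures grown from the control region of mouse tail skin, of 14 libraries in the series. They were chosen by the names of their count columns, which carry the tag CTRL1 (6 libraries) or CTRL2 (2 libraries). The titles of all 8 say Ctrl1, so the split into set 1 (CTRL1) and set 2 (CTRL2) rests on the column names and descriptions alone. All 8 carry the genotype Lrig1CreER/Rosa-TdTomato, received no treatment and have the time label 8w pw1, and the region is labelled Ctrl (non-memory). Lrig1 GL cells, positive for the surface protein Sca1, were sorted by flow cytometry from tail epidermis, plated in keratinocyte complete medium and grown for 1 week before RNA was taken. The other 6 libraries come from the distal memory region and are compared with nothing here. In this mouse line a tamoxifen-inducible Cre recombinase is placed at the Lrig1 gene and switches on a red fluorescent protein, so a labelled cell is a cell that made Lrig1 when tamoxifen was given, or its descendant. The animal's sex, the number of animals behind each library and the number of cells are not stated in the labels, so the spread between libraries may be partly technical.

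Lrig1 is a membrane protein that restrains receptors of the epidermal growth factor family, and in mouse skin it marks cells of the upper hair follicle, around the opening of the sebaceous gland. Sca1, encoded by Ly6a, is carried by cells of the infundibulum and of the interfollicular epidermis. In tissue, basal keratinocytes make keratins 5 and 14 and anchor to the basement membrane through hemidesmosomes. Their daughters leave the basal layer, turn on keratins 1 and 10, and finally build a cornified envelope from small proteins that are cross-linked under the cell membrane. In growth medium, as in a wound, keratinocytes make keratins 6, 16 and 17.

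The deposited values are whole-number counts per gene. The 8 libraries held between 4515646 and 7458872 counts, and 15810 to 17935 genes had a count in each. A level of 1 CPM (counts relative to library size, scaled with the TMM factors of edgeR) was therefore worth about 4.52 to 7.46 counts. Counts of genes encoded in the mitochondrial genome made up 3.80% to 5.40% in the 6 libraries of set 1, 7.13% in library 7 and 6.92% in library 8, which are the libraries of set 2. Correlations of log2 CPM between pairs of libraries lay between 0.909 and 0.938 for the 15 pairs in set 1, at 0.906 for the pair in set 2 and between 0.894 and 0.926 for the 12 pairs across sets, as a description across genes. The labels do not say what separates the sets. No pair of libraries agreed within counting error (chi-square per degree of freedom of 16.3 to 37.5), which amplified reads can exceed even in repeats of 1 sample. Each library was counted as a separate sample because the labels list it as one.

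Of 55228 gene symbols in the table, 24850 had a count in at least 1 control library and 11949 in every one. At a level of 1 CPM or more, 10037 genes were present in all 8 libraries and 13693 on average. The 10 genes with the most counts in a library took 8.75% ± 1.33 of it (SD, n = 8), and the 1000 with the most took 60.9% ± 1.21. Protein-coding genes of the nucleus held 90.3% ± 1.46 of the counts, mitochondrially encoded genes 5.39% ± 1.12 and genes annotated as long intergenic RNAs 1.61% ± 0.370.

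The most abundant transcripts were mitochondrial messengers and genes of keratinocyte structure. mt-Co1, a subunit of cytochrome c oxidase, stood at 18477 ± 6373 CPM, from 10298 to 29570, and was highest in libraries 7 and 8. mt-Nd1 followed with 14310 ± 3782 CPM and mt-Cytb with 12348 ± 2878 CPM. Mitochondrial genes have near-identical copies in the nuclear genome, so their counts are uncertain, and mt-Co2 at 80.02 CPM and mt-Atp6 at 40.7 CPM were low beside them. The first nuclear gene was Gm26917, at chr17:39843013-39846341 of GRCm38, with 7531 ± 2305 CPM. The annotation lists Gm26917 as a long intergenic RNA, and the origin of its reads was not tested. Gm26917 had its highest value, 12490 CPM, in library 7.

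Ahnak, a very large scaffold protein under the cell membrane, followed with 6495 ± 1067 CPM and ranged from 5019 to 7932. Jag1, a Notch ligand, had 6381 ± 2379 CPM and a maximum of 11358 CPM in library 8. Dsp, the desmosomal plakin that ties keratin filaments to the junction, had 6027 ± 1751 CPM. Npm1, a nucleolar chaperone of ribosome assembly, stood at 5559 ± 668 CPM, and Anxa1, an annexin of the membrane cytoskeleton, at 5389 ± 690 CPM. Perp, a tetraspan protein of desmosomes, had 4517 ± 891 CPM, Actb 4475 ± 668 and the hyaluronan receptor Cd44 4142 ± 509. These nuclear genes varied by less than a factor of 3 between their lowest and highest library.

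Levels of different genes are compared per transcript length, as length-scaled TPM values from the counts and the union of each gene's annotated exons. On that scale the leading nuclear genes were Perp with 7068 ± 1140 TPM, Gm26917 with 6960 ± 2122, Krt17 with 6525 ± 1246, Krt14 with 6469 ± 1361 and Npm1 with 6382 ± 477. The adenine nucleotide carrier Slc25a5 had 5801 ± 1358 TPM, S100a10, the partner of annexin A2, had 5019 ± 1001, and Ly6a had 4510 ± 1416. Txn1, Krt6a, Tmsb4x and Serpinb2 closed the 20 most abundant, between 3785 and 4084 TPM. These ranks depend on the length used: with the median transcript length in place of the union of exons, 10 of the 20 genes remained among the first 20, and Krt14 had 2950 TPM and Ahnak 6127 in place of 1002.

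Keratins are the intermediate filament proteins of epithelia, built from pairs of a type I and a type II chain. Of 54 keratin genes in the table, 24 had no count in any of the 8 libraries and 17 had a mean of at least 1 CPM. Their counts summed to 13138 ± 1770 CPM, from 10659 in library 3 to 15771 in library 7. The basal pair Krt14 and Krt5 and the wound-associated keratins Krt17, Krt6a and Krt16 held the first 5 places.

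Krt14 ranged from 2852 to 5265 CPM with a median of 3439, and Krt5 from 1594 to 2254 with a median of 1902. Krt14 was highest in library 7 and lowest in library 2, and Krt5 was highest in library 1 and lowest in library 3. Krt17 ranged from 2468 to 4523 CPM with a median of 3239, Krt6a from 2378 to 4277 with 3033 and Krt16 from 300.1 to 672 with 354. Krt17 was above Krt14 in TPM in 4 of 8 libraries, so their order was not fixed. Krt14 was above Krt6a, Krt6a above Krt5 at 2694 ± 375 TPM, and Krt5 above Krt16 at 796 ± 249.1 TPM, in 8 of 8 libraries each.

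Krt18 and Krt8, the pair of simple epithelia, came next with 349 ± 46.8 and 244 ± 72.3 TPM. Krt90 (71.8 TPM), Krt42 (68.8), Krt6b (36.6), Krt7 (35.4) and Krt10 (30.5) followed, and their order was loose: Krt90 was above Krt42 in 4 of 8 libraries, Krt6b above Krt7 in 3 and Krt7 above Krt10 in 4. Krt79, a keratin of the upper follicle canal, had 31.2 ± 7.46 CPM, from 20.6 to 43.7. Krt15, a keratin of resting basal and bulge cells, had 1.37 ± 1.10 CPM and no count in library 6, and Krt1 averaged 0.341 CPM. Krt23 had 21.9 CPM in library 8 and no count in the other 7. Krt6a and Krt6b, and likewise Krt14, Krt16, Krt17 and Krt42, share long stretches of sequence, so reads may be divided between them in a way the counts do not show.

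**Figure D1:**
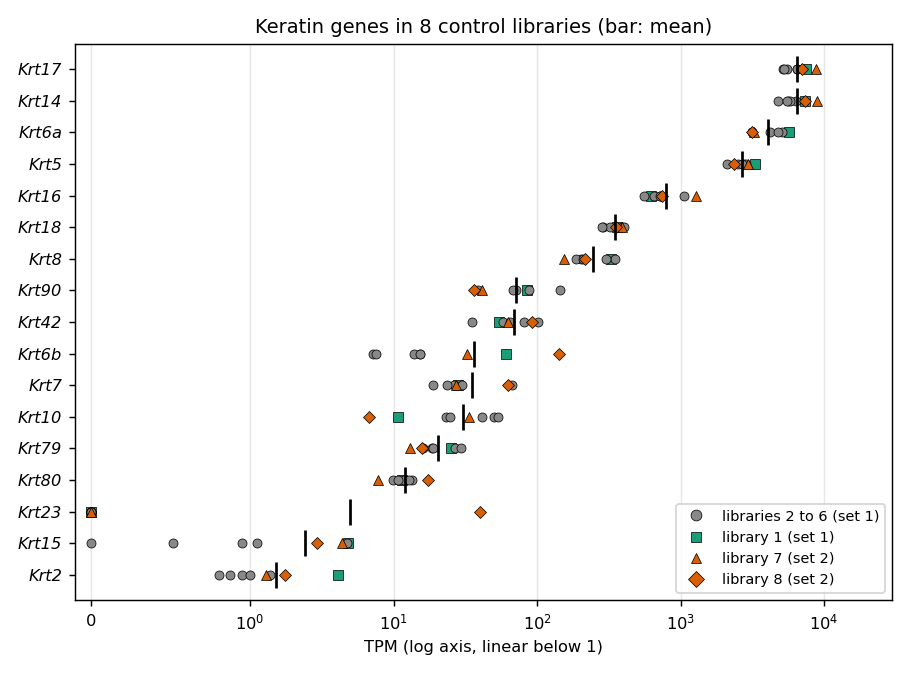
Each row is a keratin gene with a mean of at least 1 CPM and each point 1 of the 8 control libraries, on a TPM axis that is logarithmic above 1. The bars mark means. Krt17 and Krt14 lie together at 6525 and 6469 TPM, Krt6b is widely spread, and Krt23 has its counts in library 8.

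The genes that anchor basal keratinocytes were present throughout. All 18 genes of the basal and hemidesmosome list had a mean of at least 1 CPM, 16 of them of at least 100, and their sum was 14202 ± 1413 CPM. Itgb1, the shared beta chain of many integrins, ranged from 975 to 1675 CPM with a median of 1096. The hemidesmosome receptor pair Itga6 and Itgb4 stood at 464 ± 112 and 353 ± 44.5 CPM, and Col17a1, the collagen of hemidesmosomes, at 486 ± 55.1. Trp63, the master transcription factor of stratified epithelia, kept between 170.5 and 221 CPM in the 8 libraries. Sfn, a 14-3-3 protein of keratinocytes, had 624 ± 103 CPM. Among the other integrins, Itgav had 744 ± 148 CPM and Itgb6, its epithelial partner, 638 ± 93.7, and both were highest in library 8.

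Of 16 desmosome genes, 14 had a mean of at least 1 CPM, and Dsg1c had no count. Besides Dsp and Perp, the cadherins Dsg3 and Dsc3 of the lower layers had 2279 ± 230 and 591 ± 75.0 CPM, and the plaque protein Jup had 455 ± 87.5. The cadherins of the upper layers were lower: Dsg1b averaged 5.43 CPM, from 0.699 to 13.6, and Dsg1a 4.93 CPM, from 0 to 12.2. In the order of TPM, Perp was first, Dsp next with 1902 ± 491 and Dsg3 after it with 1008 ± 151. Summed over the list, counts ranged from 10978 CPM in library 6 to 17705 in library 8.

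Adherens junctions were represented by 11 of 12 genes, with Cdh1 (E-cadherin) at 1338 ± 226 CPM, Ctnnb1 (beta-catenin) at 878 ± 167 and Cdh3 (P-cadherin) at 244 ± 43.7. Cdh2 (N-cadherin) averaged 0.873 CPM. Of 14 tight junction genes, 13 reached a mean of 1 CPM. Cldn1, the main claudin of epidermis, had 1203 ± 157 CPM, the junctional adhesion molecule F11r 445 ± 61.1 and Cldn4 275 ± 45.1. Their summed level was 2705 ± 223 CPM and lowest in library 4, at 2200.3. Of 10 gap junction genes, 7 reached a mean of 1 CPM, led by the connexin Gja1 with 1741 ± 579 CPM. Gjb2 lay between 22.7 and 70.5 CPM in libraries 1 to 7 and at 5.03 CPM in library 8.

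All 8 cultures carried the transcripts of dividing cells. Each of the 30 genes of the G1/S list and each of the 30 of the G2/M list had a mean of at least 1 CPM. The G1/S list summed to 4151 ± 490 CPM and the G2/M list to 2987 ± 240, with highest over lowest library ratios of 1.35 and 1.27. Mki67, a chromosome coat protein of cycling cells, ranged from 329 to 509 CPM with a median of 384. Top2a, the topoisomerase that untangles chromosomes, ranged from 293 to 430.3 CPM. Rrm2, the small subunit of ribonucleotide reductase, had 1117 ± 190.01 CPM, Pcna 425 ± 117 and Ccnb2 228 ± 64.3. No library stood apart in either sum. Over the 59 of them with a mean of at least 5 CPM the coefficient of variation had a median of 23.2%.

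Among regulators of the first cycle phase, Cdk6 had 806 ± 131 CPM, Ccnd2 739 ± 183 and Ccnd1 415 ± 101. The inhibitors Cdkn1b and Cdkn1a stood at 207 ± 34.1 and 97.0 ± 16.7 CPM. Cdkn2a, an inhibitor that accumulates in ageing cultures, averaged 1.59 ± 0.715 CPM and was not above 2.94 in any library.

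The gene of the sorting marker was abundant. Ly6a, which encodes Sca1, ranged from 1177 to 2394 CPM with a median of 1667. Lrig1 was much lower, with 40.9 ± 8.43 CPM, from 24.2 to 52.8. Of 15 genes of the upper hair follicle and junctional zone, 13 had a mean of at least 1 CPM. The protease Klk10 had 831 ± 264 CPM, the activin antagonist Fst 719 ± 112, the glycerol channel Aqp3 348 ± 95.1 and Plet1, an antigen of the upper follicle, 305 ± 72.6. The stem cell receptor Lgr6 averaged 2.2 CPM with no count in libraries 7 and 8, and Gata6, a factor of the sebaceous duct, 0.869. The fluorescent reporter and Cre are not symbols of the mouse table and were not checked.

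Genes of the bulge, the stem cell niche of the lower follicle, were divided. Sox9 was high, with 438 ± 79.7 CPM, and Runx1 had 131 ± 27.0. Cd34 and Lhx2 averaged 1.44 and 1.02 CPM with no count in 4 and 5 of the 8 libraries, and Lgr5 averaged 0.0775. Among 22 epidermal transcription factors, all had a mean of at least 1 CPM. Klf5 had 239 ± 63.2 CPM, and Klf4, a barrier factor, had 117 ± 31.5.

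Hox genes record position along the body. Of 39 in the table, 20 had a mean of at least 1 CPM. Per transcript length, Hoxa9 had the highest mean with 44.9 ± 16.9 TPM, before Hoxd10 with 39.5 ± 15.8, Hoxb7 with 35.6 ± 14.4, Hoxb9 with 24.1 and Hoxa10 with 18.4. The first 3 overlapped across libraries, from 25.3 to 72.2 TPM for Hoxa9, 17.2 to 62.4 for Hoxd10 and 19.6 to 65.8 for Hoxb7. Hoxa13, Hoxb1, Hoxd1 and Hoxd13 had no count.

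Differentiation genes were uneven. Of 33 suprabasal and cornified envelope genes, 19 had a mean of at least 1 CPM. Dmkn, a secreted protein of the upper layers, had 412 ± 89.5 CPM, Spink5, an inhibitor of kallikrein proteases, 198 ± 65.9, Ppl (periplakin) 123 ± 19.8 and Krtdap, a secreted differentiation protein, 104 ± 51.8. Krt10 averaged 21.02 CPM, from 5.03 to 37.5, Ivl (involucrin) 4.51, Lor (loricrin) 0.534 and Flg (filaggrin) 0.698. The wound-activated list was mostly present, with 23 of 24 genes at a mean of at least 1 CPM. Inhba, the activin chain, had 703 ± 122 CPM, Tnc, the matrix protein tenascin C, 450 ± 80.7, Plau, the urokinase protease, 231 ± 60.9 and the EGF-family ligand Areg 83.8 ± 23.0.

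Markers of other skin lineages were mostly at or near 0. A count of 0 in all 8 libraries allows a level of up to 0.0634 CPM over the 47336273 counts, by a floor of 3 counts for counting error alone. Of 11 T cell genes, 8 had no count and the rest averaged under 1 CPM. Of 7 mast cell genes, 6 had none. Of 13 Langerhans cell and macrophage genes, 7 had none and 1, the lysosomal Cd68, averaged over 1 CPM, at 5.07 ± 1.63. No count was found for 5 of 10 endothelial genes, 4 of 6 red blood cell genes, 6 of 9 skeletal muscle genes and 4 of 8 adipocyte genes. The adipocyte list summed to 13.4 to 42.8 CPM. Schwann cell and neural genes were less often absent: 1 of 9 had no count and 4 had a mean of at least 1 CPM. That list summed to 55.1 to 84.1 CPM, and Tubb3 had its highest mean, 48.8 TPM. In bulk RNA, fewer cells of a type and less RNA per cell cannot be told apart.

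Of 10 melanocyte genes, 5 had no count: the pigment enzymes Tyrp1 and Dct, the transcription factor Sox10, the receptor Kit and the transporter Slc45a2. Tyr, the first enzyme of pigment synthesis, had 1 count in all and Mlana 3, while Pmel, the fibril protein of pigment granules, had 1.501 ± 1.43 CPM, from 0 in library 5 to 4.02 in library 1. The melanocyte list still summed to 48.4 ± 15.4 CPM, most of it from Mitf, at 31.7 ± 8.44 CPM, and Gpnmb, at 15.1 ± 8.57. For Merkel cells, Krt20, Atoh1, Sox2, Isl1 and Chga had no count, and the list's sum of 318 ± 41.2 CPM came from Krt8 and Krt18. Of 16 hair shaft and matrix genes, 11 had no count and Gata3 was highest with 46.2 ± 11.9 CPM. Among sebaceous gland genes, 7 of 13 had a mean of at least 1 CPM, led by the desaturase Scd1 with 454 ± 59.2 and the lipid droplet protein Plin2 with 127 ± 7.55. Acta2 and Mcam, of the smooth muscle and pericyte list, were present at 92.7 ± 24.3 and 70.5 ± 17.5 CPM, while 7 of its 10 genes averaged under 1 CPM.

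**Figure D2:**
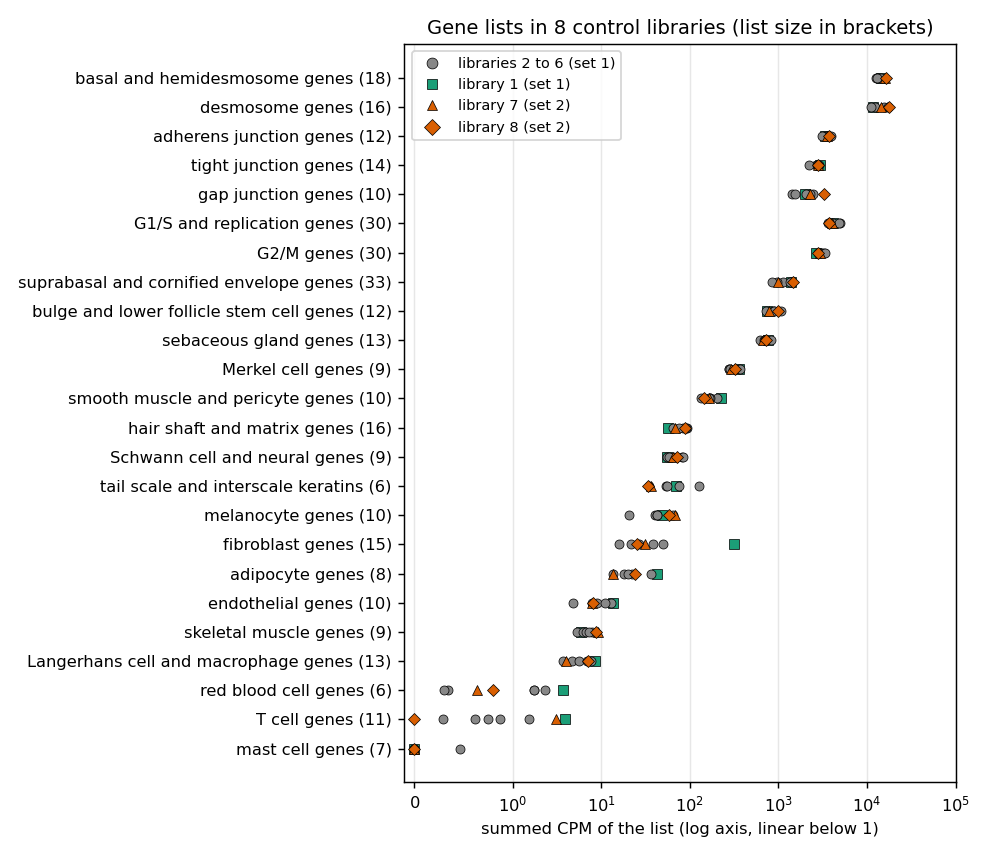
Each row is a fixed gene list and each point the summed CPM of its members in 1 of the 8 control libraries, on an axis that is logarithmic above 1. Junction, basal and cycle lists lie at the right, with the highest library 1.24 to 2.32 times the lowest, immune and blood lists at the left, and the fibroblast list spans from 16.0 to 314 CPM, with library 1 the highest.

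Genes of both sex chromosomes were checked, since the labels give no sex. The Y-linked genes Ddx3y (41.0 to 136 CPM) and Eif2s3y (84.9 to 154 CPM) had counts in all 8, and Xist, the RNA of the inactive X chromosome, lay between 0.603 and 16.4 CPM.

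To find which genes differed most among libraries at a given level, the coefficient of variation (CV, the SD divided by the mean of the 8 CPM values) was set against a smooth trend over mean CPM. Of 9766 genes with a mean of at least 5 CPM, 429 (4.39%) had a CV of at least 2 times the trend and are called variable here; 296 of them are protein coding (3.31% of the 8930 protein-coding genes measured). The rule picks genes by their values, so the genes below are a description and carry no test. At the edge of the rule, Gm36989 had 2.0003 and 5430416N02Rik 1.999 times the trend. The median CV was 47.7% at 5 to 10 CPM and 18.8% at 500 CPM and over, and the share of variable genes was 7.88% in the lowest of these bins and 3.21% in the highest.

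In 418 of the 429 variable genes the library furthest from the mean, the most deviant one, was the highest. A single library stood well apart in fewer of them. In 157 the highest library was at least 2-fold the next, and in 49 a single library held over 80% of the squared deviations. These counts were not made for the other genes, and a library that stands apart itself raises the CV. Without the most deviant library, 104 were still past the rule and 95 had too low a mean to be measured. Library 8 was the highest for 171 of them (39.9%), library 7 for 82 (19.1%), library 3 for 56 and library 1 for 51. For the other genes these shares lay between 8.88% and 15.1% in each library. When set 1 was measured alone, 228 of the 429 were variable in it.

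**Figure D3:**
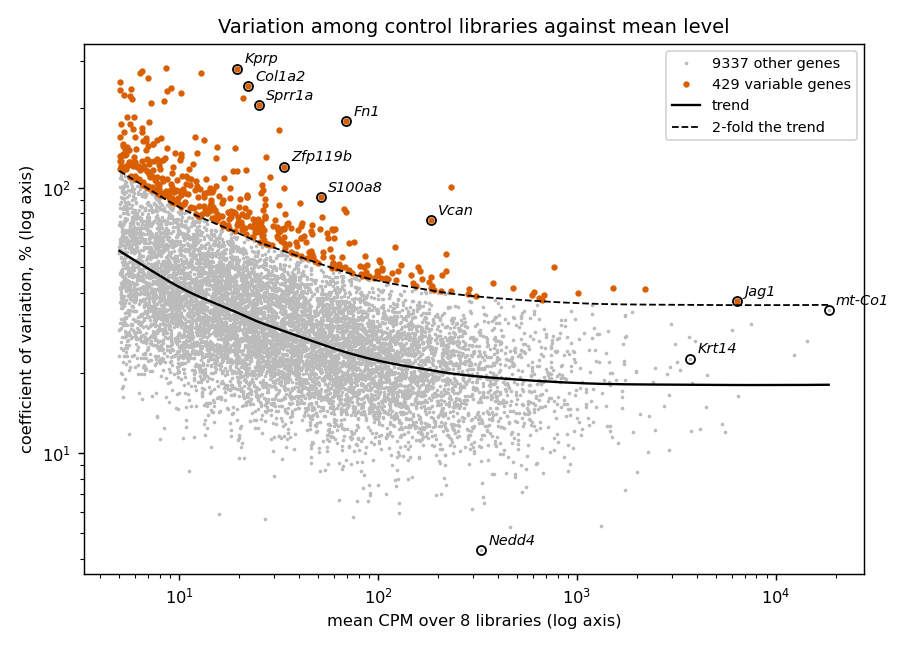
Each point is a gene with a mean of at least 5 CPM over the 8 control libraries, with its coefficient of variation on the vertical axis and both axes logarithmic. The solid line is the trend and the dashed line 2 times the trend; the 429 orange genes lie on or above it, with Kprp far above and Nedd4 far below.

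**Figure D4:**
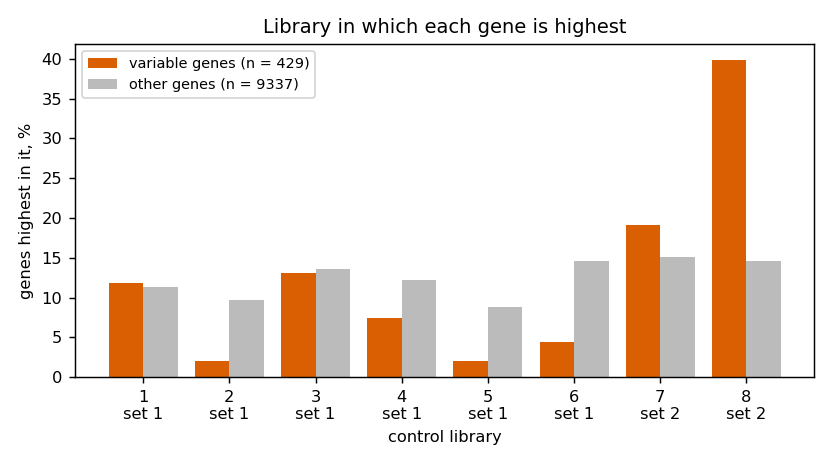
Bars give the percentage of the 429 variable genes (orange) and of the 9337 other genes (grey) whose highest CPM was in each library. Library 8 holds 39.9% of the variable genes against 14.6% of the others.

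Library 8 carried genes of the cornified envelope that the other cultures nearly lacked. Kprp, a proline-rich protein of the granular layer, had 156 CPM in library 8 and at most 0.577 in the other 7. Lce1f, a late cornified envelope protein, had 98.6 CPM there and at most 1.70 elsewhere. Sprr1a, a small proline-rich cross-bridge protein of the envelope, had 152 CPM there and 2.60 to 14.7 elsewhere. Klk7, a protease that loosens corneocytes, had 133 CPM there and 1.21 to 14.7 elsewhere. In each of these genes library 8 lay apart and the other 7 libraries, library 7 of the same set included, stayed together at a low level.

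The same pattern held for Lce1c (68.2 CPM against at most 0.155), Cnfn, or cornifelin (62.6 against at most 2.25), Crct1 (51.1 against at most 1.12), the protease inhibitors Cst6 (52.5 against at most 2.71) and Spink12 (48.9 against at most 1.12), and Asprv1, a protease that processes filaggrin (38.4 against at most 7.99). Krt6b had 110.8 CPM in library 8, 41.6 in library 1 and 4.68 to 24.1 in the others. S100a8, a calcium-binding alarmin, had 162 CPM in library 8 and 14.04 to 64.1 in the others. Outside this function, Glrx, a glutaredoxin, had 160.1 CPM against at most 24.8, Ccng2, a cyclin of resting cells, 84.1 against at most 22.3, and Slc16a10, an aromatic amino acid transporter, 67.4 against at most 6.07. Of the 30 variable genes with the largest excess, 16 were highest in library 8, 9 in library 1 and 3 in library 7. Only 20 of the 30 kept a mean of at least 5 CPM without library 8, and 24 without library 1. The rest were measured only because of their level in that library, so the minimum mean itself favours such genes.

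Several of these genes are neighbours. Between Sprr1a and Crct1 on chromosome 3 (chr3:92483952-93015687 of GRCm38), 26 genes reached 1 CPM in at least 1 library, and 22 of them were highest in library 8, a window chosen after its values were seen. Of the genes with a mean of at least 5 CPM that were not variable, 14.6% were highest in library 8. The share among genes of lower level, as most of these are, was not computed. The window's summed level was 811 CPM in library 8 and between 41.6 and 61.2 in the others. Of 18 Lce genes with a count, 17 were highest in library 8 and 10 had no count elsewhere, and the family summed to 402 CPM there and to between 0.642 and 5.07 in the others. In the Sprr family of small proline-rich proteins, 4 of 10 with a count were highest in library 8. The family summed to 232 CPM there and to between 61.2 and 88.1 in the others, while Sprr1b had 141 TPM in library 8 and 171 in library 2. Members of the Lce family resemble each other closely, so the division among them is uncertain.

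Other differentiation genes did not share the pattern. Krt10 was lowest in library 8, at 5.03 CPM, Ivl had 3.82 CPM there within its range of 1.56 to 9.25, Lor, a late envelope gene like those above, had 0.402 and Krtdap 60.3 within its range of 56.1 to 175. Of the 25 suprabasal and cornified envelope genes that reached 1 CPM anywhere, 11 were highest in library 8. The share among all genes that reached 1 CPM was not computed, and it was 14.6% among non-variable genes of at least 5 CPM. Among the 15 of that list with a mean of at least 5 CPM, 5 were variable, against 4.39% of all genes measured. Of the 5, 4 were highest in library 8, as were 39.9% of all variable genes. Cnfn and Klk7 reached the minimum mean only through library 8, the value that also made them variable. The share of the list is therefore partly set by the filter. Basal genes were within or near the range of the other libraries there, with Krt14 at 4557 CPM and Trp63 at 219.

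The promoter sequences of some of these genes are shown because the genes were high together in 1 library. Of the 16 genes highest in library 8 among the 30, 9 had an entry in the RefSeq promoter table for GRCm38.p6, and the stretches below are the 250 bases before the annotated start, read on the coding strand, of Sprr1a (chr3:92485882-92486131, minus strand), S100a8 (chr3:90668821-90669070, plus strand), Lce1c (chr3:92678997-92679246, plus strand) and Klk7 (chr7:43811044-43811293, plus strand). Capitals mark matches on either strand to TGANTCA, the letters bound by AP-1 factors, and to TATAAA, the TATA box.
Sprr1a: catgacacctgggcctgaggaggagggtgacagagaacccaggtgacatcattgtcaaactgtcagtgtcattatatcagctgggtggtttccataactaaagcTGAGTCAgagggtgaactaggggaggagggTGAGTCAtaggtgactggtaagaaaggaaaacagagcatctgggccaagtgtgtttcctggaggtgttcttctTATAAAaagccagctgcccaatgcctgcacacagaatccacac
S100a8: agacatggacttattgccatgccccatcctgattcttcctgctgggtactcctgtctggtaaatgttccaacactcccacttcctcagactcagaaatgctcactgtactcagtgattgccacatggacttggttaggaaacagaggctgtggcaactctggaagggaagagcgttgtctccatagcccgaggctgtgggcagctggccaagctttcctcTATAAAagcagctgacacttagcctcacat
Lce1c: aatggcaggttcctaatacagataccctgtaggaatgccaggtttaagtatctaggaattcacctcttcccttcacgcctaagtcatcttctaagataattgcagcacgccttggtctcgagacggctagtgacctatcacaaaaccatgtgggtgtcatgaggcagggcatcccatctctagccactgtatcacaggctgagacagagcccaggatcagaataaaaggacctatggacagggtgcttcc
Klk7: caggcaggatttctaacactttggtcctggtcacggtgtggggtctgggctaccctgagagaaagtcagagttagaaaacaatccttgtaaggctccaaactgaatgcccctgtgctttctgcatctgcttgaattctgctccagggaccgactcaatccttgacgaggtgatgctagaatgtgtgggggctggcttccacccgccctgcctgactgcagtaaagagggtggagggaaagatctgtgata
The Sprr1a stretch holds 2 matches to TGANTCA, the nearer starting 116 bases before the start, and 1 to TATAAA, 43 bases before it. S100a8 holds TATAAA 30 bases before the start, and the Lce1c and Klk7 stretches hold neither. Of the 9 genes with an entry, 2 had a match to TGANTCA, the other being Glrx, and 2 to TATAAA. Over all 32851 promoter entries, 6.75% held TGANTCA and 12.4% TATAAA in the same 250 bases. A match is a description of letters.

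**Figure D5:**
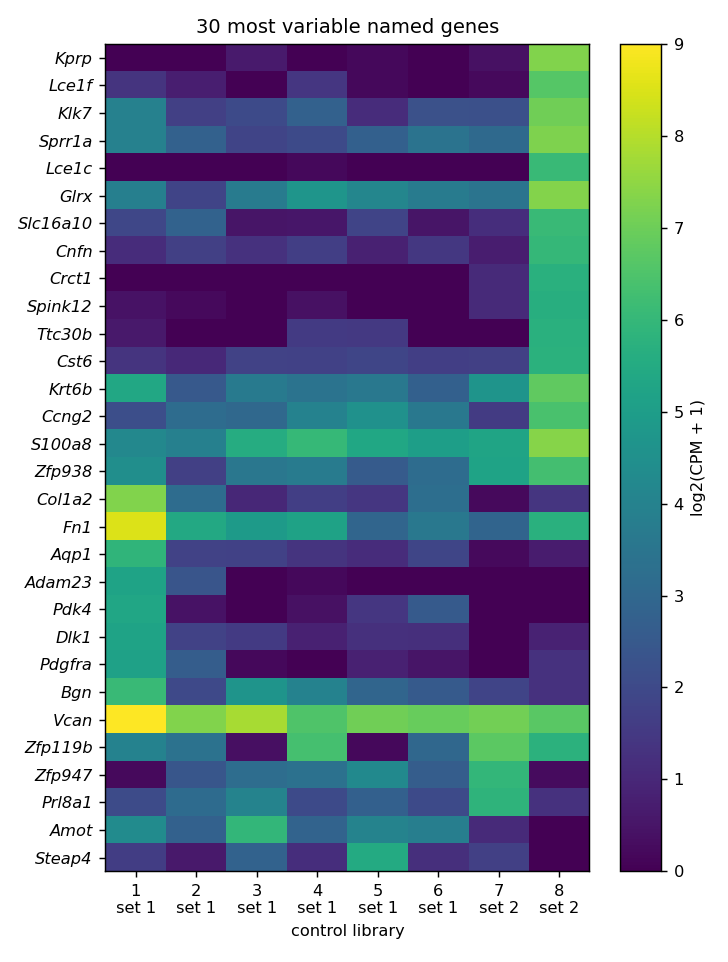
Rows are the 30 genes with the largest excess of variation over the trend, in groups by their highest library, and columns the 8 control libraries. Colour gives log2(CPM + 1). The upper 16 genes are brightest in library 8 and the next 9 in library 1. Some, such as S100a8, Zfp938, Krt6b and Vcan, are bright in other libraries too.

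Library 1 was set apart by genes of connective tissue cells. Fn1, the matrix protein fibronectin, had 372 CPM in library 1 and 6.42 to 51.7 in the other 7. Vcan, a large matrix proteoglycan, had 510.1 CPM there and 91.9 to 225 elsewhere. Col1a2, a chain of collagen I, had 155 CPM there and 0.161 to 8.59 elsewhere, and Pdgfra, a growth factor receptor of fibroblasts, 34.3 there and at most 5.37 elsewhere. Bgn (67.1 CPM against at most 24.1), Aqp1 (58.4 against at most 2.64), Dlk1 (36.5 against at most 2.43), Adam23 (36.0 against at most 4.16) and Pdk4 (38.8 against at most 4.85) followed it.

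Of the 15 fibroblast genes, 12 had a count and 10 of these were highest in library 1. The share among all genes with a count was not computed, and it was 11.4% among non-variable genes of at least 5 CPM. The list summed to 314 CPM in library 1 and to between 16.0 and 49.7 in the others. Without Col1a2 the sums were 159 in library 1 and at most 41.8 elsewhere. Lum, Dpt and Fbn1, which are also fibroblast markers, had no count in any library, and Vim, at 29.9 CPM, and Sparc, at 36.0, were the other members above 20 CPM in library 1. The part of such cells in the spread of Fn1, Vcan and the rest was not tested. Cd34, which is carried by fibroblasts as well as bulge cells, had 6.99 CPM in library 1 and at most 2.64 in the others.

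Genes named Zfp, most of which encode DNA-binding zinc finger proteins, were often variable. Of 205 with a mean of at least 5 CPM, 57 (27.8%) were variable, against 4.39% of all genes measured; the group was picked after its values were seen. Of the 57, 22 were highest in library 8 and 20 in library 7, where 171 (39.9%) and 82 (19.1%) of all 429 variable genes were highest. Genes named Gm and a number were often variable too, 119 of 603 (19.7%). Zfp119b had 105 CPM in library 7, 79.6 in library 4 and 54.1 in library 8, and 0.151 and 0.289 in libraries 5 and 3. Zfp947 had 60.8 CPM in library 7, 0.175 in library 1 and 0.201 in library 8. Zfp938 had 78.6 CPM in library 8, 36.0 in library 7 and 2.25 to 20.8 in set 1. The high library was thus not the same from gene to gene.

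Summed over the 205 genes, Zfp transcripts made 9533 CPM in library 7 and 10001 in library 8, and 6568 to 9020 in set 1. These sums did not overlap between the sets, but most single genes did. Both libraries of set 2 were above every library of set 1 for 23 of the 205 (11.2%), against 533 of the 9766 genes measured (5.46%). In the comparison of sets by edgeR's quasi-likelihood test, none of the 205 had an adjusted p under 0.05 (0% of all genes tested), 28 had an unadjusted p under 0.05 (13.7%, against 8.33% of all), and their median log2 difference was 0.24 higher in set 2. DESeq2 called 7 of 203 (3.45%, against 0.851% of all), each higher in set 2 and named after the calls were seen: Zfp317, Zfp709, Zfp780b, Zfp932, Zfp938, Zfp948 and Zfp991. Libraries 7 and 8 also stood at opposite ends in the slope of log2 level on GC content, at 0.139 and -0.137 per 10 points of GC. With the trend on GC content and length removed from each library, 52 of 202 Zfp genes (25.7%) were variable, 49 of the 57 among them. The CV was then 4.19 times the trend for Zfp119b, 3.93 for Zfp947 and 2.91 for Zfp938, against 4.17, 3.95 and 3.57 without the removal.

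Some variable genes were near 0 in a library and well above it in another. Of the 429, 132 were under 0.5 CPM in at least 1 library and at 10 CPM or more in another (30.8%). Of the 9766 genes measured, 297 were (3.04%). Such a range itself raises the CV by which the variable genes were picked, so the higher share follows from the rule. Amot, a scaffold protein of tight junctions, had 60.9 CPM in library 3, 19.1 in library 1 and none in library 8. Steap4, a metal reductase, had 44.0 CPM in library 5 and at most 6.06 in the others. Prl8a1, of the prolactin family, was present in every library, with 56.8 CPM in library 7 and 1.41 to 15.3 in the others.

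Of the variable genes, 10 had a mean of at least 500 CPM and are named here after their values were seen: Jag1, Rpl5, Ppp1cb, Gm17066, Ptma, Rps27a, Prss23, Serp1, Timp3 and Rps15a. Ptma, the chromatin protein prothymosin alpha, ranged from 253 to 1245 CPM, lowest in libraries 1 and 2. Jag1 ranged from 4059 to 11358 CPM. Ppp1cb, a phosphatase subunit, ranged from 770.1 to 2545 CPM, again lowest in libraries 1 and 2. Timp3, an inhibitor of matrix proteases, had 1002 CPM in library 1, 938 in library 8 and 316 to 669 in the others. Rps27a and Rps15a, of the small ribosomal subunit, were highest in library 6, at 1237 and 1039 CPM, and lowest in library 8, at 415 and 322. Ribosomal protein genes as a whole took 3.82% of counts in library 6 and 2.03% in library 8.

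Among the lists, the wound-activated genes held 6 variable genes of 21 measured, the keratins 3 of 14 and the desmosome genes 1 of 13, where 4.39% of all genes measured were variable. Il1a, the alarmin interleukin 1 alpha, ranged from 98.4 to 336 CPM, and Krt7 from 44.7 to 155, both highest in library 8. Krt90 and the desmosomal cadherin Dsg4 were highest in library 6, at 125 and 34.8 CPM. No gene of the basal, adherens, tight or gap junction lists was variable, nor any of the G1/S genes; with 6 to 29 genes measured in each list, this is near the share over all genes. Bub1, a kinase of the spindle checkpoint, was the variable member of the G2/M list, with 147 to 175 CPM in libraries 3, 4 and 7 and 46.5 to 81.7 in the others.

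At the other end stood the steadiest genes. Nedd4, a ubiquitin ligase, had the smallest CV for its level among genes of at least 50 CPM, 4.31% against a trend of 19.4%, with 315 to 349.8 CPM in the 8 libraries. Tns4, an adhesion protein, varied by 5.28% around 464 CPM, Serbp1, an RNA-binding protein of ribosomes, by 5.29% around 1322 and Plin2 by 5.93% around 127. Psmd5, Arf5, Fam98a, Eif3g, Gsn and Cltb completed the 10 steadiest, with CVs of 5.72% to 6.97%.

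The split of the control libraries by column tag, set 2 (libraries 7 and 8) against set 1 (libraries 1 to 6), was tested over 13752 genes. With edgeR's quasi-likelihood test no gene had an adjusted p under 0.05 (0% called), 1146 had an unadjusted p under 0.05, and DESeq2 called 103 (0.851% of those it tested; 29 higher and 74 lower in set 2). mt-Co1 lay at 29570 and 26610 CPM in set 2 and at 10298 to 17460 in set 1, with an adjusted p of 0.331 (edgeR) and of 0.00389 with DESeq2; the other settings tried gave 0.121 to 0.576. Krt14 lay at 5265 and 4557 CPM in set 2 and at 2852 to 3981 in set 1, with an adjusted p of 0.510 (edgeR) and of 0.0739 with DESeq2. On simulated counts with the same sizes, edgeR's test recovered 15.2% of 2-fold, 58.5% of 4-fold and 73.4% of 8-fold differences. With 2 libraries in a set, differences of all these sizes could thus be missed. Each simulated gene had the spread typical of its level. The shares therefore do not hold for the variable genes, which spread more. Without library 7, edgeR called 11 genes, all higher in set 2 and listed after the calls were seen: Sprr1a, Kprp, Lce1c, Lce1f, Lce3e, Lce3f, Crct1, Cnfn, the protease inhibitors Spink12 and Cst6, and 2210017I01Rik. In that fit library 8 alone stands for set 2.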

How the data were processed

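RNA was amplified by the Smart-seq2 protocol and made into libraries with Nextera XT, per the labels' protocols. The submitters' processing notes name HISAT2, featureCounts and the mouse build GRCm38 (mm10); strand setting and treatment of reads with several matches are not given in the sources used here. The deposited values are raw counts, with no normalization by the authors. The members and gene lists were chosen with earlier results of these data known.

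From the 8 control columns, CPM was computed with TMM factors (edgeR 4.0.16, R 4.3.3), and TPM from counts and the union exon length of each gene in GENCODE's GRCm38 annotation; 1659 symbols, with 0.292% of counts, had no match there. Depth per library was 4515646 to 7458872 counts, and errors are SDs over libraries. Variation was measured as log2 squared CV over a lowess trend (span 0.3) on log2 mean CPM, for genes with a mean of at least 5 CPM, and a gene was called variable at a CV of 2 times the trend. Sets were compared with edgeR's quasi-likelihood test (glmQLFit with robust estimation, glmQLFTest, filterByExpr, Benjamini-Hochberg adjustment over all genes tested, threshold 0.05), two-sided. Scripts were tested on simulated data. Named genes were the 20 with the highest mean CPM and the 20 with the highest mean TPM, up to 6 leading members of each list, keratins and Hox genes at 1 CPM or more, the 30 most variable and 10 steadiest genes with a proper name, fixed markers, and variable list members; genes outside this rule are said to be chosen after their values were seen. A few genes that the rule names are not reported here. Alternatives were other scalings, filters, trends and tests (DESeq2 1.42.0, limma 3.58.1) and leaving out each library.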

Additional observations from a re-analysis of the deposited data

Results flagged for a closer look

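A value is given here where the highest or lowest of the 8 libraries lies apart from the rest by more of the whole range than Dixon's 95% critical value for 8 values. Chance alone flags about 1 group in 20; among all 9766 genes with a mean of at least 5 CPM, 859 (8.80%) met the rule, and many of the genes below were chosen for their variation, so their flags are no independent evidence.

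Library 8 was far above the rest for Kprp (155.9 CPM), Lce1f (98.6), Klk7 (133), Sprr1a (152), Lce1c (68.2), Cnfn (62.6), Crct1 (51.1), Spink12 (48.9), Cst6 (52.5), Krt6b (110.8), S100a8 (162) and Asprv1 (38.4), which are genes of late differentiation or of activated keratinocytes. It was also far above for Glrx (160.1 CPM), Slc16a10 (67.4), Ttc30b (51.7), Ccng2 (84.1) and Zfp938 (78.6), and for the summed list of other integrins (2269 CPM).

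Library 1 was far above the rest for the matrix genes Col1a2 (155 CPM), Fn1 (372), Vcan (510.1) and Bgn (67.1), for Pdgfra (34.3), Dlk1 (36.5), Aqp1 (58.4), Adam23 (36.0), Pdk4 (38.8) and Cd34 (6.99), and for the summed fibroblast list (314 CPM).

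Library 7 was far above the rest for Gm26917 (12490 CPM), Zfp947 (60.8) and Prl8a1 (56.8). Library 6 was far above for Krt90 (125 CPM), for the summed scale and interscale keratins that contain it (126 CPM) and for Dsg4 (34.8). Amot was far above the rest in library 3 (60.9 CPM) and Steap4 in library 5 (44.0). The summed tight junction list was far below the rest in library 4, at 2200.3 CPM.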

How the results depend on the processing

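The comparison of sets, with 0 genes by edgeR's quasi-likelihood test, gave 103 with DESeq2, mt-Co1 among them, and 2 with no filter on low counts (Gm6682 and Sox11, both lower in set 2); leaving out each library in turn gave 0 to 11, the 11 without library 7, where library 8 alone stands for set 2 and is assumed to vary like set 1. With the library number within a set as a replicate block, shared by 2 numbers and not stated to pair samples, 0 genes passed and 1275 had an unadjusted p under 0.05; the other scalings, filters and models listed also gave 0. The count of variable genes, 429, became 723 with a minimum mean of 1 CPM, 197 with 20 CPM and 78 at an excess of 3; it was 381 to 480 when each library was left out and 352 to 518 under the other settings, with 211 of the 429 shared when the SD of log2(CPM + 1) was used. The count of genes at 1 CPM was 18233 when 1 library sufficed in place of all 8, against 10037, and 10086 to 10223 when each library was left out. The mean summed keratin level stayed between 12762 and 13492 CPM when each library was left out. On the SD of log2(CPM + 1) against the mean of the same logs, 15 of the 30 most variable genes named fell under the threshold of 2, while all 30 stayed past it when the same SD was set against the mean CPM; the cause was not tested. The excess was 0.185 for Lce1f, 0.571 for Cnfn, 0.577 for Aqp1, 0.734 for Cst6, 1.01 for Slc16a10 and 0.50 for Steap4, and it turned negative for 9: Kprp -0.0131, Lce1c -1.09, Crct1 -1.18, Spink12 -1.02, Ttc30b -0.540, Adam23 -1.05, Pdk4 -0.465, Dlk1 -0.257 and Pdgfra -0.463. Without libraries 1 and 8, an alternative added after the data were seen, 430 genes were variable and the excess of Sprr1a was -0.250. The exact counts of low genes are limited by depth, with 1 CPM worth 4.52 to 7.46 counts.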
